A study of Mus musculus with 4 samples.

Results

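The genes described here are the chains of the type I interferon, interferon-gamma and interleukin-10 (IL-10) receptors with a pair of kinases that dock on them: Ifnar1, Ifnar2, Ifngr1, Ifngr2, Il10ra, Il10rb, Tyk2 and Jak2. They were chosen by name, as 6 receptor chains and 2 kinases, and are 8 of the 19938 genes measured. Each had exactly 1 transcript cluster, the set of array probes summarised as one value, and no cluster was shared with another gene. The source was the mouse B lymphoma line CH12.F3, which can be made to switch its antibody class from IgM to IgA. Controls and knockout cells alike had been activated for 24 hours with 3 agents: IL-4 at 5 ng/ml, TGF-beta at 0.2 ng/ml, and CD40 ligand at 25% of the volume, in 6% fetal calf serum. There were 4 whole-transcript arrays, 2 of control cells and 2 of cells without Mbd4 (Mbd4 KO), which encodes a base-excision repair enzyme with a methyl-CpG binding domain. The design asks how activated cells with and without Mbd4 differ. No interferon or IL-10 was added according to the labels, and they do not say how the knockout was made, whether it is 1 clone, or whether separate cultures lie behind the arrays of a group. The p-values then rest on the spread among these 4 arrays alone, and that spread may be technical.

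As background, each of these receptors is built from a ligand-binding chain and an accessory chain of the class II cytokine receptor family. IFNAR1 pairs with IFNAR2 for the type I interferons, IFNGR1 with IFNGR2 for interferon-gamma, and IL10RA with IL10RB for IL-10, while IL10RB also serves the receptors for IL-22 and interferon-lambda. The chains have no enzyme activity of their own: TYK2 docks on IFNAR1 and IL10RB, JAK2 on IFNGR2, and JAK1 on the others, and the kinases then phosphorylate STAT proteins. In B cells these pathways tune MHC expression, antiviral genes and class switching. In the mouse genome Ifnar2, Il10rb, Ifnar1 and Ifngr2 lie, in that order and side by side, on chromosome 16, while Ifngr1 lies on chromosome 10, Il10ra and Tyk2 on chromosome 9 and Jak2 on chromosome 19.

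The promoters of the 3 chromosome 16 chains whose values differed alike, as given further on, are shown with that of Ifngr1, the partner of Ifngr2 on another chromosome. RefSeq promoter sequences (GRCm38.p6, 250 bases before to 50 after the start) matched 6 of the 8 genes, all but Il10rb and Il10ra. Capitals mark the CpG dinucleotides, the site class that Mbd4 recognises when methylated.
Ifnar2, chr16:91372533-91372832, + strand: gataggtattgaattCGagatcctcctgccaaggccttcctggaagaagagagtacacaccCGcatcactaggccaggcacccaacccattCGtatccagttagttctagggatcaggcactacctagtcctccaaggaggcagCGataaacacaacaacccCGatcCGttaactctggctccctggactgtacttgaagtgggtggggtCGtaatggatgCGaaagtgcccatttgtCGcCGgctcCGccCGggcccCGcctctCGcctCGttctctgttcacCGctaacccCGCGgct
Ifnar1, chr16:91484965-91485264, + strand: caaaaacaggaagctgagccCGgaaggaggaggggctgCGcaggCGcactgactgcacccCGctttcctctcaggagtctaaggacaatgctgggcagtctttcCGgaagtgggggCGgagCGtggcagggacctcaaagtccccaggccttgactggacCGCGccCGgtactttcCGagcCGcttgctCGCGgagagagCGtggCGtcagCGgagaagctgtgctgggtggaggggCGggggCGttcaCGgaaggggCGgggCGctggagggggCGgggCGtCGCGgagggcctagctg
Ifngr2, chr16:91546809-91547108, + strand: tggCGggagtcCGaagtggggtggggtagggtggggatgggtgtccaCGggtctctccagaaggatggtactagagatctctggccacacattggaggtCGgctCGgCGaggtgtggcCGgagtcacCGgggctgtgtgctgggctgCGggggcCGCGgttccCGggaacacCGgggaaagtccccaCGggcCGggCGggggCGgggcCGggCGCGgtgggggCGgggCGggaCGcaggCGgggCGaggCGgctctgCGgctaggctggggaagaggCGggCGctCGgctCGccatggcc
Ifngr1, chr10:19591699-19591998, + strand: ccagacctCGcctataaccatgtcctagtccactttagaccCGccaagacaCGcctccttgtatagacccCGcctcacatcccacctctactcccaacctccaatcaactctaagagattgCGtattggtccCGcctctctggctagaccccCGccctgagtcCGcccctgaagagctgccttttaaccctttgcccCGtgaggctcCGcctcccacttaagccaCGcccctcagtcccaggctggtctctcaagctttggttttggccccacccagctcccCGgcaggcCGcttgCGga
The promoter of Ifnar2 held 18 CpG sites, that of Ifnar1 26, that of Ifngr2 31 and that of Ifngr1 14. Those of Tyk2 and Jak2, not printed, held 23 and 44. The median over 32851 promoters of this length was 7 and the upper quartile 20, so Ifnar1, Ifngr2, Tyk2 and Jak2 lay above that quartile. The motif TTCNNNGAA, the core of the gamma-activated site that STAT dimers bind and its own reverse complement, matched once in Ifnar2 (TTCCTGGAA, first base at -214) and once in Ifnar1 (TTCACGGAA, first base at -5, running over the start). It is found in 8.3% of all promoters of this length. The core of the interferon-stimulated response element, GAAA repeated after a gap of 2 bases and searched on both strands, matched in none of the 6 and is found in 3.44% of all promoters. No 2 matches overlapped. Methylation was not analysed here.

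Mbd4 itself read 8.74 and 8.77 in controls against 6.47 and 6.49 in the knockout (log2), and fell by 2.28 (SE 0.066; limma adjusted p = 0.0002, Benjamini-Hochberg). Whether its probes lie in the deleted part was not stated in the labels. All 8 B cell markers measured, among them Ms4a1, Cd79a, Cd79b and Pax5, were bright (mean level at or above the median over genes, 7.152), with control means of 10.24 to 12.54. Of the markers of other cells, 1 of 8 for T cells (Cd28), 2 of 8 for myeloid cells (Csf1r and Cd68), 1 of 5 for NK cells (Prf1) and 2 of 5 for fibroblasts were bright. Cd3d and Cd3e had control means of 5.36 and 6.80 and Lyz2 of 5.02. The mean level of the T cell markers was 6.87 in both controls against 6.92 and 6.90 with Mbd4 KO, and that of the myeloid markers 6.44 and 6.51 against 6.52 and 6.52. For the NK markers it was 5.72 and 5.71 against 5.60 and 5.65, and for the fibroblast markers 6.82 and 6.83 against 6.76 and 6.71. Both means were lower on both Mbd4 KO arrays, with 1 large difference in each list, Prf1 (NK, -0.37) and Pdgfrb (fibroblast, -0.52). The other NK markers differed by -0.09 to 0.09 and the other fibroblast markers by -0.08 to 0.14. No marker of any of these lists passed limma's threshold.

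The type I interferon receptor genes were lower together in Mbd4 KO cells, by about the same amount, but neither passed the test. Most other bright genes of their chromosome were lower too, with a median of -0.28, as given further on. Ifnar1, the chain that carries TYK2, had values of 10.24 and 10.20 in control against 9.85 and 9.85 in the Mbd4 KO arrays. The Mbd4 KO arrays lay below both control arrays, with a gap of 0.34 between the groups. The means were 10.22 ± 0.033 and 9.85 ± 0.005 (log2, SD, n = 2 each), a difference of -0.37 ± 0.066 (SE), or 1.29-fold lower, with a 95% interval of -0.53 to -0.21 and a limma adjusted p of 0.0744. Ifnar2, the high-affinity binding chain, had values of 11.03 and 11.06 in control and 10.71 and 10.67 in Mbd4 KO arrays. Again the groups did not overlap. The difference was -0.35 ± 0.066 (SE), 1.28-fold lower, with a 95% interval of -0.52 to -0.19 and a limma adjusted p of 0.0835. In these bulk samples fewer cells expressing a gene and less RNA of it per cell cannot be told apart.

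For the interferon-gamma receptor, the accessory chain had values apart between the groups and the ligand-binding chain had overlapping ones. Ifngr2, which brings JAK2 to the complex, had values of 12.96 and 12.89 in control and 12.57 and 12.65 in Mbd4 KO arrays. Both Mbd4 KO values lay below both control values, with a gap of 0.25. Its difference was -0.32 ± 0.071 (SE; 95% interval -0.49 to -0.14), 1.25-fold lower, with a limma adjusted p of 0.124, so it did not pass. Ifngr1, which binds interferon-gamma, had values of 10.55 and 10.62 in control and 10.54 and 10.68 in Mbd4 KO arrays. Here the Mbd4 KO values spanned both control values. The difference was 0.02 ± 0.079 (SE; limma adjusted p = 0.939), with an interval of -0.17 to 0.22. That leaves room for a change either way within these limits. The difference of Ifngr2 (-0.32) lies outside them, but its own interval (-0.49 to -0.14) overlaps them. Set against the control mean within each array, Ifngr2 over Ifngr1 stood at 0.07 and -0.07 in the controls and at -0.31 and -0.37 in the Mbd4 KO arrays (log2), a shift of -0.34 that was not tested.

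The IL-10 receptor had its chains the other way round, with the binding chain on chromosome 9 lower and the chromosome 16 chain overlapping between the groups. Il10ra, the chain specific to IL-10, had values of 8.13 and 8.20 in control and 7.48 and 7.69 in Mbd4 KO arrays. The groups lay 0.43 apart, the widest gap of the 8 genes. Its means were 8.17 ± 0.055 and 7.59 ± 0.15 (log2, SD, n = 2 each), a difference of -0.58 ± 0.092 (SE), or 1.49-fold lower (95% interval -0.80 to -0.35). The limma adjusted p was 0.0519, just over the threshold of 0.05. It passed with quantile normalization (adjusted p = 0.0475) or cyclic loess normalization (0.0478), where 1.16% and 1.34% of all clusters were called, and did not with any 1 array left out (0.106 to 0.246).

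Il10rb, the shared accessory chain that lies between Ifnar2 and Ifnar1, had values of 10.39 and 10.51 in control and 10.34 and 10.47 in Mbd4 KO arrays. The groups overlapped, since control array 1 lay below Mbd4 KO array 2. The difference was -0.05 ± 0.082 (SE; limma adjusted p = 0.84), with an interval of -0.25 to 0.15. It changed sign with control array 2 or Mbd4 KO array 1 left out, staying between -0.12 and 0.013. Relative to the control mean, Ifnar1 over Il10rb stood at 0.08 and -0.08 in the controls and at -0.25 and -0.39 in the Mbd4 KO arrays. Thus both Mbd4 KO arrays lay below both controls in that ratio, which was not tested.

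Of the kinases, Tyk2 overlapped between the groups and Jak2 was higher in Mbd4 KO cells, without passing. Tyk2, which serves the type I interferon and IL-10 receptors, had values of 9.06 and 9.01 in control and 9.06 and 9.11 in Mbd4 KO arrays. Mbd4 KO array 1 lay just below control array 1, so the groups overlapped, and the difference was 0.05 ± 0.068 (SE; 95% interval -0.12 to 0.21; limma adjusted p = 0.818). Jak2, the kinase of IFNGR2, had values of 10.45 and 10.51 in control and 10.69 and 10.90 in Mbd4 KO arrays. Both Mbd4 KO arrays lay above both controls, and they differed from each other more (SD 0.15) than the controls did (SD 0.045). The difference was 0.32 ± 0.091 (SE; 95% interval 0.10 to 0.54), 1.25-fold higher, with a limma adjusted p of 0.208. The plot of the 8 genes by array sets these values side by side; probes differ between genes, so no gene's level is ranked against another's.

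**Figure D1:**
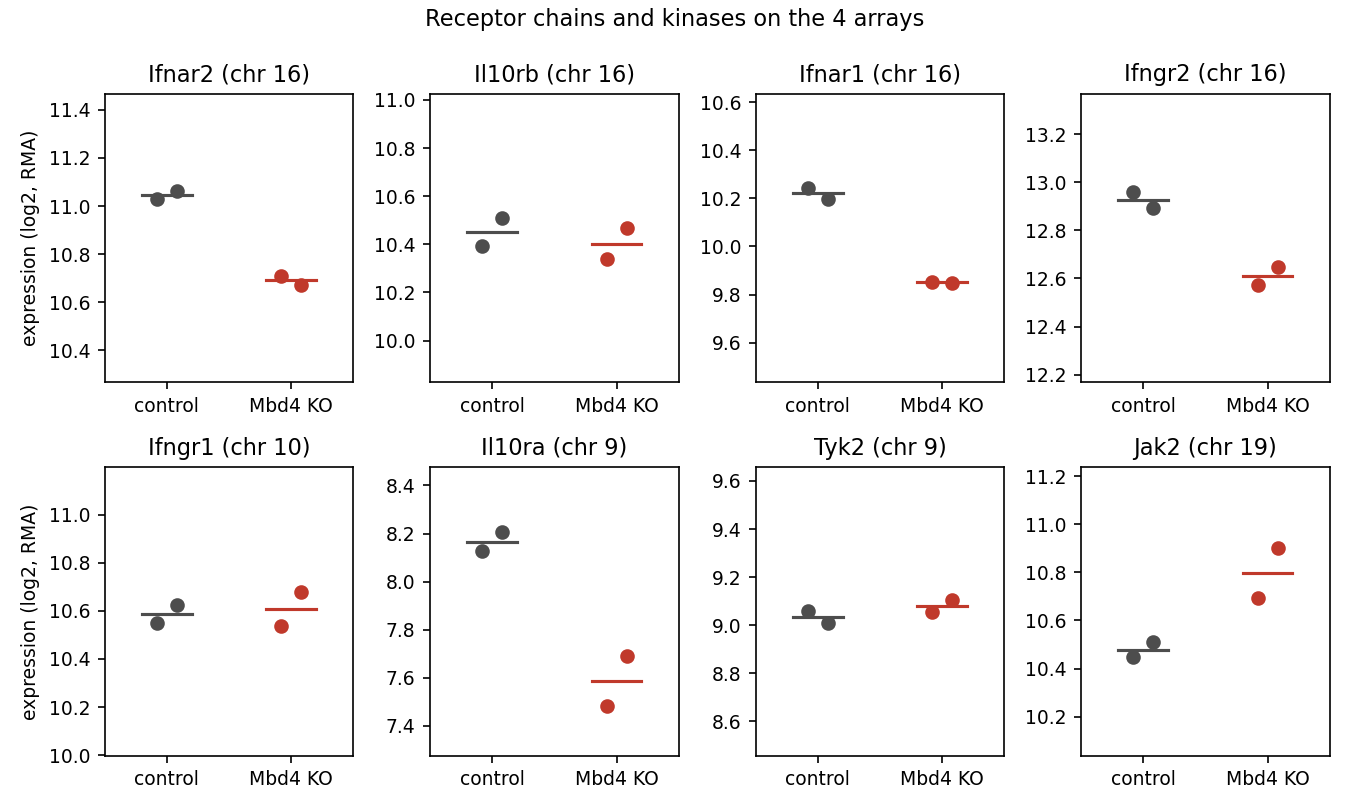
Expression (log2, RMA) of the 8 genes on the 4 arrays, 1 panel per gene, each spanning 1.2 log2 units; points are arrays and lines group means (n = 2 each). The groups are apart for Ifnar2, Ifnar1, Ifngr2 and Il10ra, which are lower in Mbd4 KO, and Jak2, which is higher, and overlap for Il10rb, Ifngr1 and Tyk2.

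Of the 8 genes, 0 passed limma's threshold (adjusted p below 0.05), where 1.39% of all 21789 tested clusters did, 0.955% lower and 0.431% higher in Mbd4 KO cells. Without adjustment 5 had a p below 0.05, against 13.8% of all clusters. The same 5 genes did not overlap between the groups, 4 lower and 1 higher. Over all clusters 45.0% did not overlap: both Mbd4 KO arrays lay below both controls in 18.3% of all clusters and above them in 26.7%. All 8 genes were bright, and over bright genes these shares were higher, 23.6% below and 30.7% above. Among the other bright genes of chromosome 16, both Mbd4 KO arrays lay below both controls in 85.6%. The smallest difference among clusters that passed was 0.43, larger than those of Ifnar1, Ifnar2, Ifngr2 and Jak2. The outcome depended on how the spread was estimated. With an intensity trend in limma's prior, which lets bright clusters have a smaller spread than dim ones, these 5 passed: Ifngr2 (adjusted p = 0.000737), Ifnar2 (0.00125), Ifnar1 (0.00232) and Il10ra (0.00376) as lower and Jak2 (0.0176) as higher. Their SE was smaller under that setting, except for Il10ra (0.094 against 0.092). That setting called 5.14% of all clusters, 3.32% lower and 1.83% higher. It also called cell type markers: of the B cell list Cd22 and Cd37 as higher and Blnk as lower, of the other lists Cd28 (T cell) as higher and Cd68 (myeloid), Prf1 (NK) and Pdgfrb (fibroblast) as lower, with adjusted p between 0.00159 and 0.0376. Their part in the receptor values was not tested. Without the dimmest 30% of clusters Il10ra, Ifnar1 and Ifnar2 passed (adjusted p = 0.0199, 0.0275 and 0.0321), with 4.2% of clusters called. None of the 8 passed with a robust prior (1.34% of clusters called), with the replicate number as a block (0.73%), with all clusters of the table (0.0619%), without moderation of the variance (0.0%), without control array 1 (0.344%) or 2 (0.312%), or without Mbd4 KO array 1 (0.307%) or 2 (0.298%).

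**Figure D2:**
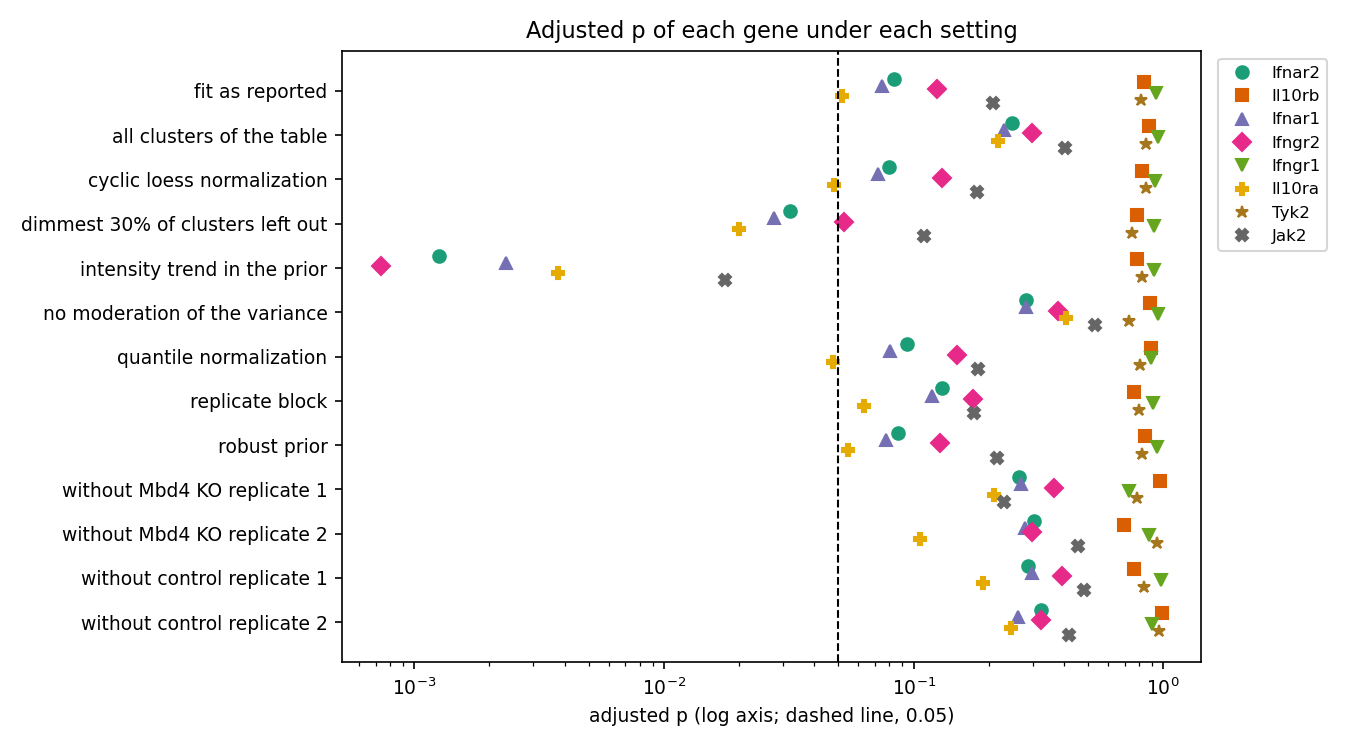
Adjusted p (log axis) of each of the 8 genes in limma's fit as reported and under the 12 other settings; the dashed line marks 0.05. With the intensity trend 5 genes lie left of the line, without the dimmest 30% of clusters 3 do, and with any 1 array left out none does.

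The chromosome 16 chains were then set against the rest of their chromosome. Over the 19938 genes the median difference was 0.02, and over the 312 other bright genes of chromosome 16 it was -0.28, with quartiles of -0.36 and -0.18; 287 of the 312 were lower and 31 passed, all lower (9.94%). The 4 receptor chains had a median of -0.34. Of the 312 genes, 68 were more negative than Ifnar1, 81 than Ifnar2, 113 than Ifngr2 and 279 than Il10rb. Ifnar2 and Ifngr2 thus lay between the quartiles of their chromosome and Ifnar1 just below the lower one, while Il10rb lay above the upper one, and its interval did not reach the chromosome's median. Under the intensity trend, 3 of the 4 chains and 59.3% of the 312 genes passed as lower. The part of this chromosome-wide difference in the receptor values was not tested.

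**Figure D3:**
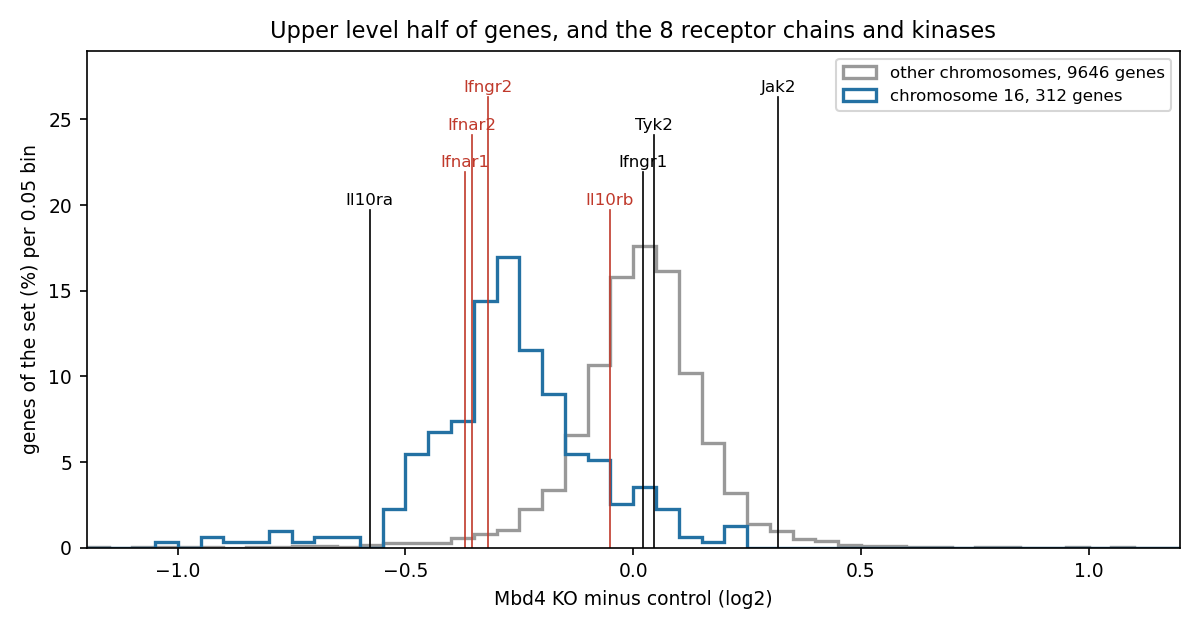
Differences (Mbd4 KO minus control, log2) of bright genes (mean level 7.152 or above), as a percentage of each set per bin of 0.05, for chromosome 16 (blue) and the other chromosomes (grey); vertical lines mark the 8 genes, red on chromosome 16. Ifnar1, Ifnar2 and Ifngr2 fall within the bulk of chromosome 16 around its median of -0.28, and Il10rb, Ifngr1 and Tyk2 within that of the other chromosomes.

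The partner genes stood on chromosomes with medians near 0. Their own median was 0.03, against 0.02 on each of chromosomes 9, 10 and 19 (bright genes), but it joins differences from -0.58 to 0.32. It turned to -0.013 without Mbd4 KO array 2 and was 0.081 without Mbd4 KO array 1. Il10ra was among the lowest of its chromosome, with 5 of 560 other bright genes more negative. Jak2 was near the top of chromosome 19, with 5 of 353 more positive. Ifngr1 and Tyk2 lay mid-range, with 248 of 489 and 325 of 560 genes more negative. The 16 measured genes flanking these partners, 2 on each side, differed by -0.14 to 0.17. With limma 0 passed, where 1.39% of all clusters did, and with the trend 0 passed, where 5.14% did. Only Tnfaip3, Fxyd6, Cdc37, Pde4a and Rcl1 of the 16 were bright, and they differed by 0.04 to 0.15. The rest were dim, and the dim neighbours of the chromosome 16 chains, given below, also differed little (-0.01 to 0.14). The mean of the 4 chromosome 16 chains minus that of the 4 partners was 1.61 and 1.58 for the controls, against 1.43 and 1.31 for the Mbd4 KO arrays (log2). The level of this score depends on the probes, but its shift of -0.23 put both Mbd4 KO arrays below both controls and was not tested. It joins unlike members, since Il10rb differed little among the former and Il10ra was lower among the latter.

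Among the 6 measured genes on each side of the chromosome 16 receptor block, 7 of 12 were bright, and in all 7 both Mbd4 KO arrays were below both control arrays. That was so for 85.6% of the 312 other bright genes of the chromosome and 23.6% of bright genes on all chromosomes, so the neighbours were near the rate of their chromosome. Tmem50b, the gene after Ifngr2, had values of 11.38 and 11.34 in control and 10.56 and 10.51 in Mbd4 KO arrays. It fell by 0.82 (SE 0.067; limma adjusted p = 0.00668), a call lost with any 1 array left out (0.0558 to 0.0626), and encodes a transmembrane protein. The synaptojanin gene Synj1 differed by -0.42 (adjusted p = 0.0521), the splicing cofactor gene Son by -0.40, the replication fork gene Donson by -0.29, Gm10785 by -0.24, Paxbp1, for a PAX-binding protein, by -0.22 and Gart, of purine synthesis, by -0.21, and none of these passed. Gm10785 ran from -0.36 (without Mbd4 KO array 1) to -0.12 (without Mbd4 KO array 2). Under the intensity trend 4 of the 12 neighbours passed, Tmem50b, Son (adjusted p = 0.00117), Gart (0.00981) and Synj1 (0.0118), all lower. That setting called 59.3% of the 312 other bright genes of the chromosome as lower, and 29.8% of its 645 other genes, bright or dim. The other 5, Olig1 and Olig2, which are oligodendrocyte transcription factor genes, 4932438H23Rik, Gm9881 and the DnaJ family gene Dnajc28, had control means of 5.71 to 6.54 and differed by -0.01 to 0.14. Il10rb, with a control mean of 10.45, was not among these dim genes.

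**Figure D4:**
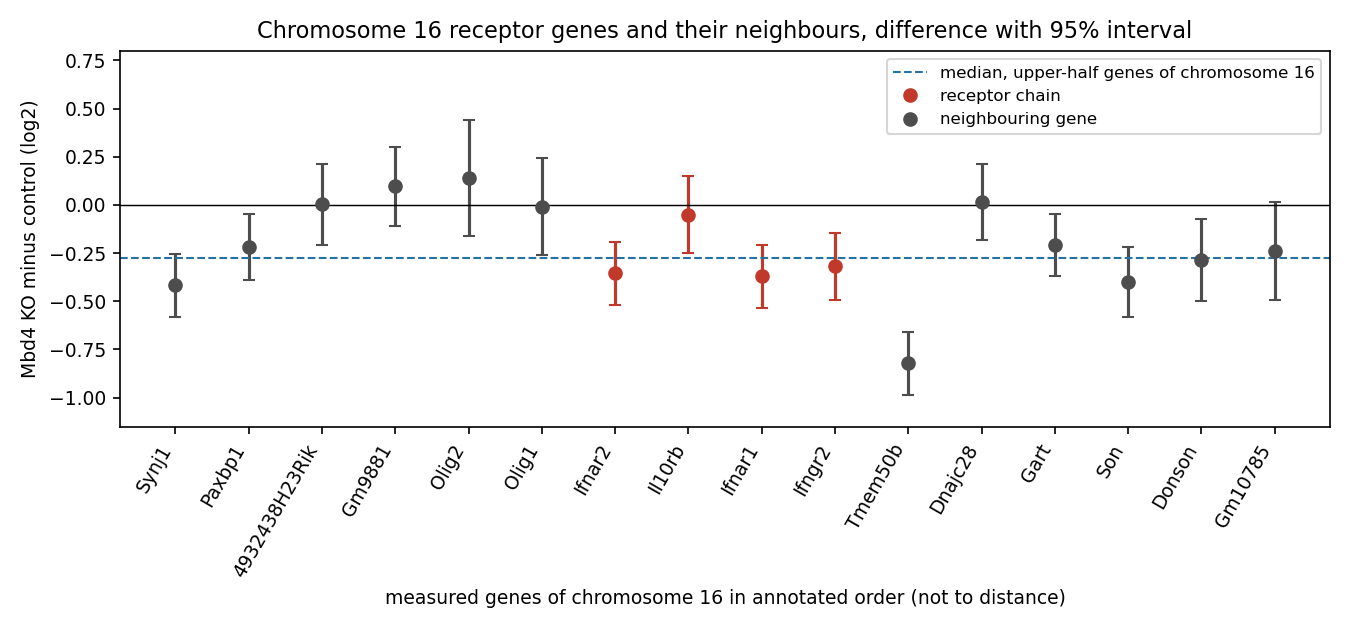
Difference (Mbd4 KO minus control, log2) with limma's 95% interval for the 4 chromosome 16 receptor chains (red) and 6 measured genes on each side (grey), in annotated order and not to distance; the dashed line is the median of the chromosome's bright genes, -0.28. Tmem50b is lowest at -0.82, and Il10rb sits at -0.05 between Ifnar2 and Ifnar1.

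The other genes of these pathways were read from lists of relatives, ligands, signalling genes and targets. Beside each count of genes that passed with limma stands the share over all clusters, 1.39%. Of the 6 other class II family receptors, 0 passed with limma; Ifnlr1, the ligand-specific chain that pairs with IL10RB for interferon-lambda, had values of 7.23 and 7.10 in control and 7.62 and 7.93 in Mbd4 KO arrays. That is a difference of 0.61 ± 0.12 (SE; adjusted p = 0.086), and it passed as higher under the intensity trend (0.00755). Il20ra, next but one to Ifngr1, differed by 0.17, and by 0.067 to 0.28 with an Mbd4 KO array left out. Among 20 ligand genes measured 0 passed, 10 were lower and 10 higher, and 3 were bright. The largest differences were those of Ifne (-0.38) and Ifna14 (-0.28), neither of them bright. Ifne ran from -0.24 without control array 1 to -0.53 without control array 2. Il10 differed by -0.10 ± 0.079 (SE; adjusted p = 0.661) and Ifng by 0.07 (adjusted p = 0.736).

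Among 8 other JAK, STAT and Irf9 genes measured, 1 passed, where 1.39% of all clusters did. Stat4, the STAT that type I interferon and IL-12 receptors can activate, had values of 10.14 and 10.20 in control and 9.02 and 9.23 in Mbd4 KO arrays. It fell by 1.05 (SE 0.091; limma adjusted p = 0.00789) and lies on chromosome 1. The call was lost without control array 1 (adjusted p = 0.0553) or control array 2 (0.0686) and held without either Mbd4 KO array (0.047 and 0.0263). Stat3, the main STAT of IL-10, differed by -0.32 ± 0.068 (SE; adjusted p = 0.109), and passed as lower under the intensity trend (0.00427). Jak1, the partner kinase of all 3 receptors, differed by -0.18 (adjusted p = 0.381). Stat2 and Irf9, which complete the type I interferon transcription complex, differed by -0.0001 and 0.10. Among 19 inhibitors of these receptors and kinases 0 passed, with a median of -0.03. The largest were Pias1 (-0.20) and Socs6 (0.18), whose other clusters gave -0.02 and 0.20, and Socs1, Socs3 and Usp18 lay between -0.03 and -0.02.

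Of 31 type I interferon targets 1 passed, where 1.39% of all clusters did. This was Samd9l, an antiviral gene, with values of 6.68 and 7.01 in control and 6.01 and 5.85 in Mbd4 KO arrays, below the median over genes. It fell by 0.91 (SE 0.12; limma adjusted p = 0.0368) and lost the call without control array 2 (0.109), Mbd4 KO array 1 (0.154) or Mbd4 KO array 2 (0.2). The list's median was -0.08, with 19 lower and 12 higher, and -0.06 over the 25 genes outside chromosome 16; over all genes it was 0.02. The RNA sensor gene Ddx58 differed by -0.38 (adjusted p = 0.0738). Of 26 interferon-gamma targets 0 passed, with a median of -0.03, 15 lower and 11 higher. Gbp7, a guanylate-binding protein gene, differed by -0.37 (adjusted p = 0.134) and Cd274, which encodes PD-L1 and lies near Jak2, by 0.36 (adjusted p = 0.0971). Of 13 IL-10 targets 0 passed, with a median of 0.03, and the largest differences were those of the stress gene Ddit4 (0.54) and the NF-kappaB regulator gene Bcl3 (-0.29). Under the intensity trend 3 type I targets and 3 interferon-gamma targets passed as lower, the latter being Psmb9 (-0.33), B2m (-0.23) and Nlrc5 (-0.23) of the MHC class I pathway, and 1 as higher, Cd274. That setting also called Bcl3 (adjusted p = 0.0219) and Pias1 (0.0476) as lower and Ddit4 (0.00655) as higher, against 3.32% of all clusters called lower and 1.83% higher. Other genes of the class I pathway in the interferon-gamma list went both ways, and none of them passed under the intensity trend. Tap1 (-0.24), Psmb8 (-0.16) and Psme1 (-0.07) were lower, and Tap2 (0.12), Psme2 (0.08), Tapbp (0.07) and Psmb10 (0.04) were higher. All these class I genes were named after their values were seen, and Nlrc5 is represented by 1 of its 19 clusters.

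**Figure D5:**
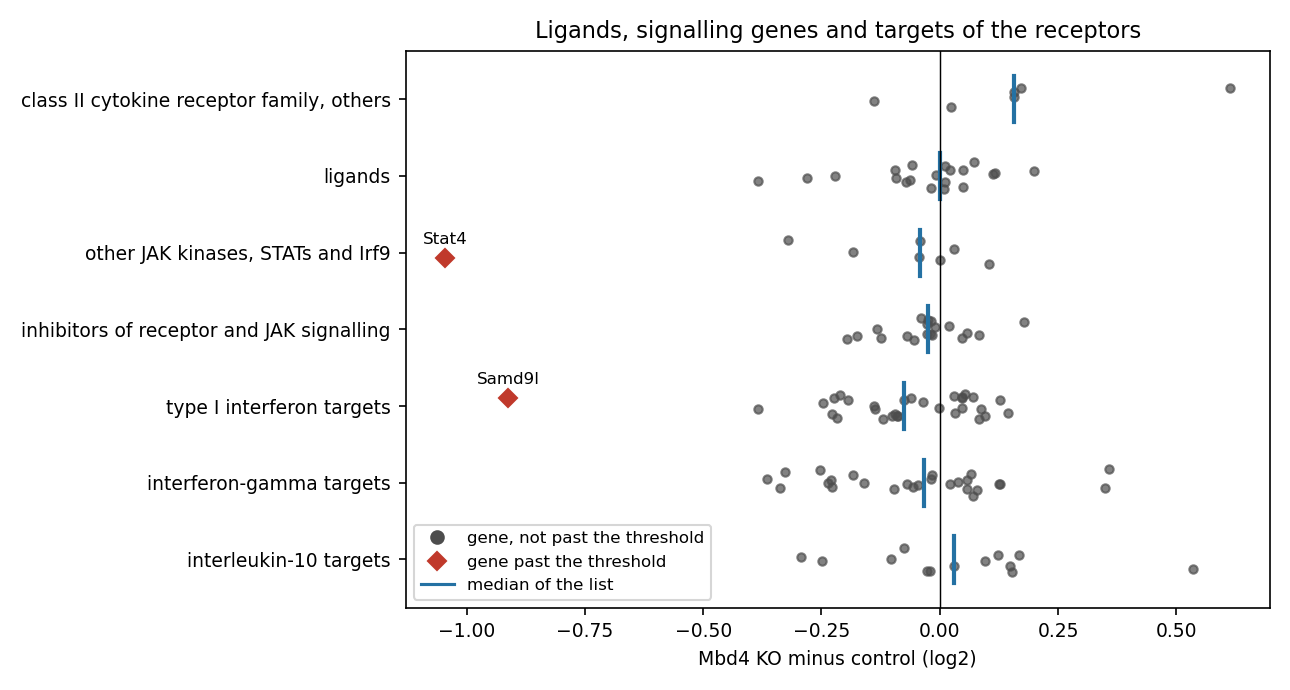
Difference (Mbd4 KO minus control, log2) of each measured gene in 7 lists around the receptors; circles did not pass limma's threshold, diamonds did, and bars are list medians. Stat4 (-1.05) and Samd9l (-0.91) are the 2 diamonds, and the list medians lie between -0.08 and 0.16.

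Patterns over the 4 arrays were compared by the Euclidean distance between values centred on each cluster's mean, among 21788 other clusters. The nearest to Ifnar2 were Med15, a Mediator subunit gene, at a distance of 0.0048 (log2), and Poglut1, a glucosyltransferase gene, at 0.015, both on chromosome 16. Ifnar1 was nearest to Trio on chromosome 15 (0.0114), whose other cluster differed by -0.03, and to the perforin gene Prf1 on chromosome 10 (0.0127). Ifngr2 was nearest to Epb41l5 (0.0066) and Wdr44 (0.0129), on chromosomes 1 and X. Il10ra was nearest to Adamts7, also on chromosome 9 (0.027), and Myo1f (0.0373), which both passed with differences of -0.58 (limma adjusted p = 0.0449 and 0.0415), but neither passed after removal of any 1 array (0.105 to 0.225). Jak2 was nearest to Snora52 and Thy1 (0.0215 and 0.0248). For the genes with little difference the nearest were Pkn3 and Rexo4 (Il10rb), Gtf3c6 and Pcnt (Ifngr1) and Cltc and Zfp810 (Tyk2). With 4 arrays many clusters share such a pattern, and the distances are descriptions only.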

How the data were processed

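Per the labels, total RNA was extracted with Trizol, cleaned on a column and labelled with a whole-transcript protocol. The authors deposited 1 log2 value for each transcript cluster on each array, and the submitters' processing notes name RMA for this step, its version not given in the sources used here. RMA corrects background, quantile-normalizes and summarises probes, so a shift shared by all genes would be removed. No raw intensity was used here.

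Arrays were grouped by title. The platform's gene table gave exactly 1 symbol to 21789 of 35556 clusters; 1621 had several and 12146 none in the table used. The test was limma's (version 3.58.1, R 4.3.3; lmFit, then eBayes; two-sided, no filter), with Benjamini-Hochberg adjustment over the 21789 clusters and a threshold of 0.05. SE and 95% intervals are limma's moderated ones (2 residual and 4.00 prior degrees of freedom). With 2 arrays a group an exact permutation test cannot go below p = 0.333. A gene with several clusters is represented by the one with the highest mean. Genes are called bright where their mean over the 4 arrays is at or above the median over genes, 7.152. Chromosomes and gene order come from RefSeq GRCm38.p6; for the array no build was named.

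The members and lists were chosen with earlier results of these data known. Named genes are the members, Mbd4, passing genes and the 2 largest differences of each list, flanking genes and nearest patterns. Il10, Ifng, Jak1, Stat2, Irf9, Socs1, Socs3 and Usp18 were added for their role, and markers as examples. The procedure was tested on simulated data, with spreads drawn from limma's own prior and changes added to random clusters. Because that simulation had no intensity trend and no shift shared along a chromosome, it does not bear on calls that differed between settings. Alternatives were a replicate block, each array left out, other priors, no moderation, a filter on dim clusters, other normalizations and all clusters. Figures used matplotlib 3.10.9.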

Additional observations from a re-analysis of the deposited data

How the results depend on the processing

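Ifnar1, Ifnar2, Ifngr2, Il10ra, Jak2 and Tyk2 kept their direction under all 12 other settings. Of the 8 genes, limma called 5 with an intensity trend and 3 without the dimmest 30% of clusters. It called 1 (Il10ra) with quantile or with cyclic loess normalization. It called 0 with the robust prior, with all clusters of the table, without moderation of the variance, or with a replicate block. In these fits 4 of the 8 (without moderation) or 5 (the others) had an unadjusted p below 0.05 by limma. Of the 21789 clusters, 2966 did with the robust prior, 3249 with the block and 2469 without moderation. With all clusters of the table, 3793 of 35556 did. The median of the chromosome 16 chains stayed between -0.35 and -0.32. That of the partners ran from -0.0128 (without Mbd4 KO array 2) to 0.0811 (without Mbd4 KO array 1). The contrast of chains and partners ran from -0.28 to -0.17.

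Over all clusters 302 passed, against 1121 with the intensity trend, 640 without the dimmest 30%, 65 to 75 with 1 array left out, 22 with all 35556 clusters (which adds clusters with no single symbol) and 0 without moderation, where 2469 had an unadjusted p below 0.05 by limma. The cause of these differences was not tested. With the replicate number as a block 159 passed. Same-numbered arrays deviated together with r = 0.083 over clusters, so the numbers were not taken to pair the arrays; Il10ra had an adjusted p of 0.063 with the block, and Samd9l (0.0801), Adamts7 (0.0632) and Myo1f (0.0544) lost their calls.

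Sign changes were seen in small differences that limma did not call. With 1 array left out Il10rb ran from -0.12 to 0.0133, Ifngr1 from -0.0479 to 0.0918, 4932438H23Rik from -0.0928 to 0.0988, Dnajc28 from -0.0466 to 0.0777, Ifna14 from -0.59 to 0.0341, Olig1 from -0.15 to 0.13 and Olig2 from -0.0366 to 0.32. Quantile and cyclic loess normalization gave -0.0115 and -0.0195 for 4932438H23Rik, and cyclic loess -0.0091 for Dnajc28. Signal over background could not be assessed.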
